A study of Mus musculus with 8 samples.

Results

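The 6 genes described here are the interferon ligands Ifnb1 and Ifng and the receptor chains Ifnar1, Ifnar2, Ifngr1 and Ifngr2. They were taken by name from the 27405 genes listed over 4 droplet single-cell libraries of CD45+ cells. No measured value entered the rule, but earlier results of these data were known when the genes were chosen. The cells were sorted from MC38 tumours, which grow from a mouse colon carcinoma line, in mice labelled wild-type, and 2 libraries came from control tumours and 2 after LNP-Sirpa treatment, which the title of the series ties to degradation of SIRPα in the tumour. All 4 libraries carry the same batch label. The labels give no age or strain and do not say what the control tumours received, and they do not tie the replicates to separate animals, so a p-value here reflects only how these samples vary, and that variation may be technical.

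Interferon beta, the product of Ifnb1, is a type I interferon that cells make when they sense nucleic acids, and it signals through a receptor of the chains IFNAR1 and IFNAR2. Interferon gamma, the product of Ifng, is made mainly by activated T and NK cells and signals through IFNGR1, which binds the ligand, and IFNGR2, which completes the signalling complex. In tumours the type I signal is known for its part in priming T cells, and the gamma signal for inducing antigen presentation and chemokines in macrophages and tumour cells.

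The promoters of the ligands are shown. All 6 genes had UMIs in each of the 6 classes large enough to test, and levels of ligands and of receptor chains differed between classes. Sequences are from RefSeq on GRCm38.p6, whose table held a window for 6 of 6 genes, written 5′ to 3′ on the strand of the gene. Capitals mark matches, searched on both strands, to TATAAA, which marks a promoter with a fixed start, to AANNGAAA, an interferon regulatory factor element, and to an NF-kappaB site (3 G, any 3 bases, then TTCC), and no marked match overlaps another.
Ifnb1, chr4:88522845-88523044, minus strand, from 250 to 51 bases before the annotated start: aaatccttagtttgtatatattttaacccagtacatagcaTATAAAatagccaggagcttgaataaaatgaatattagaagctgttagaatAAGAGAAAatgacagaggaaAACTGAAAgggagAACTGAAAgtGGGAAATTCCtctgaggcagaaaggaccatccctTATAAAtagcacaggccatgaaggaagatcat
Ifng, chr10:118440796-118441045, plus strand, the 250 bases before the annotated start: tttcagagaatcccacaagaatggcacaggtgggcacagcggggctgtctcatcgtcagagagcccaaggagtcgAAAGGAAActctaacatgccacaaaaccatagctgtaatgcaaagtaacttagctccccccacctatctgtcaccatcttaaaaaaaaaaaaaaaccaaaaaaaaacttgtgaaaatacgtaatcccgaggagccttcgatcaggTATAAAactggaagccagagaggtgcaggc
The Ifnb1 window held 2 TATAAA, 3 AANNGAAA and 1 NF-kappaB match. The Ifng window held 1 TATAAA and 1 AANNGAAA match, and also a match to TTCNNNGAA (a gamma-activated site) at 249 bases before the start, which is not in capitals. Of 32851 windows of 250 bases, 12.4% held TATAAA, 21.3% AANNGAAA, 4.65% the NF-kappaB pattern and 7.02% TTCNNNGAA. No TATAAA or AANNGAAA was found in the windows of Ifnar1, Ifnar2, Ifngr1 and Ifngr2. The Ifnar2 window held a TTCNNNGAA match at 214 bases before the start, and the Ifngr2 window an NF-kappaB match at 75. In the same order the receptor windows held 19, 11, 11 and 25 CG dinucleotides against a median of 6 over all windows, 1 for Ifnb1 and 6 for Ifng. Ifnar2, Ifnar1 and Ifngr2 lie on chromosome 16, with windows that start at positions 91372533, 91484965 and 91546809.

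The libraries held from 68654004 to 90789729 unique molecular identifiers (UMIs, each standing for 1 captured transcript), and 37717 cells were kept, 7504, 10876, 10332 and 9005 in control 1, control 2, LNP-Sirpa 1 and LNP-Sirpa 2, the order used throughout. Cells were assigned to 12 classes by UMIs of marker genes, none of them a member, and each class is named as resembling the type of its markers. The classes took 75.0%, 73.0%, 50.2% and 60.2% of kept cells, droplets with both phagocyte and T cell markers (mixed droplets) 4.37%, 8.83%, 10.8% and 5.64%, and 20.6%, 18.2%, 39.0% and 34.1% stayed outside every gate. The LNP-Sirpa libraries had the larger ungated shares, whose part in the results was not tested. The monocyte/macrophage-like class had 5088, 7174, 3537 and 4570 cells, the CD8 T-like class 49, 266, 529 and 390, the regulatory T-like class 38, 49, 177 and 109, the NK-like class 118, 75, 238 and 49, and the mature dendritic-like class 70, 76, 103 and 22. A class of 151, 151, 161 and 74 cells carried collagen markers and little Ptprc, the gene of CD45, at 17.7 to 37.5 CPM (UMIs scaled to a fixed total per class and library), against 130 to 968 CPM in the other tested classes. It is led by Sparc, Ly6c1 and Igfbp6, is called fibroblast-marker cells, and is not a typical CD45+ population. Sirpa itself stood at 561, 568, 492 and 341 CPM in monocyte/macrophage-like cells (log2 -0.31 ± 0.21 SE, edgeR adjusted p = 0.512).

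Ifnb1 transcripts were rare, and most were counted in monocyte/macrophage-like cells, the largest class. Over the 4 libraries 1273 Ifnb1 UMIs were counted in 665 cells. The monocyte/macrophage-like cells held 64, 179, 220 and 309 of them, or 1.53, 3.44, 8.96 and 7.95 CPM. Both LNP-Sirpa libraries stood above both control libraries, with means of 8.45 ± 0.712 and 2.49 ± 1.35 CPM (SD, n = 2 each). The log2 difference between LNP-Sirpa and control was 1.89 ± 0.39 SE with an edgeR adjusted p = 0.0876, so Ifnb1 did not pass the threshold of 0.05, which 0.504% of the 15462 genes tested passed. Leaving out control 1 or control 2 gave 1.41 and 2.65, neither past the threshold. DESeq2 put Ifnb1 past the threshold (adjusted p = 2.21e-04), together with 7.73% of 13363 genes, as did edgeR without a filter on low counts, and over all alternatives the adjusted p ran from 1.94e-11 to 0.258.

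The Ifnb1 difference, which did not pass the threshold in edgeR, was also described by the share of cells with a UMI and the UMIs per such cell. In monocyte/macrophage-like cells 0.590%, 1.28%, 3.36% and 3.30% had an Ifnb1 UMI, with 95% Wilson intervals of 0.413 to 0.840, 1.05 to 1.57, 2.82 to 4.01 and 2.82 to 3.86, which cover counting error only. A positive cell held 2.13, 1.95, 1.85 and 2.05 Ifnb1 UMIs on average, and at most 12. Most positive cells, 19 of 30, 57 of 92, 74 of 119 and 93 of 151, held 1 UMI. At such low counts more expressing cells and more transcript per cell cannot be told apart. The shares of the control libraries lay below those of the LNP-Sirpa libraries, whereas the UMIs per positive cell overlapped. After every cell was thinned to 2000 UMIs, with 828, 1124, 635 and 487 shallower cells left out, the shares were 0.258%, 0.612%, 1.52% and 1.32%, in the same order of groups. In CD8 T-like cells, which are not known as a source of interferon beta, the share with an Ifnb1 UMI was at most 0.769%, in LNP-Sirpa 2. Median depth there was 5091 UMIs per cell against 7599 in the monocyte/macrophage-like cells of that library. The highest share was 0.917% in regulatory T-like, 0.840% in NK-like and 3.45% in CD4 T-like cells, the last from 1 UMI. These maxima exceed the 0.590% of monocyte/macrophage-like cells in control 1, where none of these small classes held an Ifnb1 UMI.

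**Figure D1:**
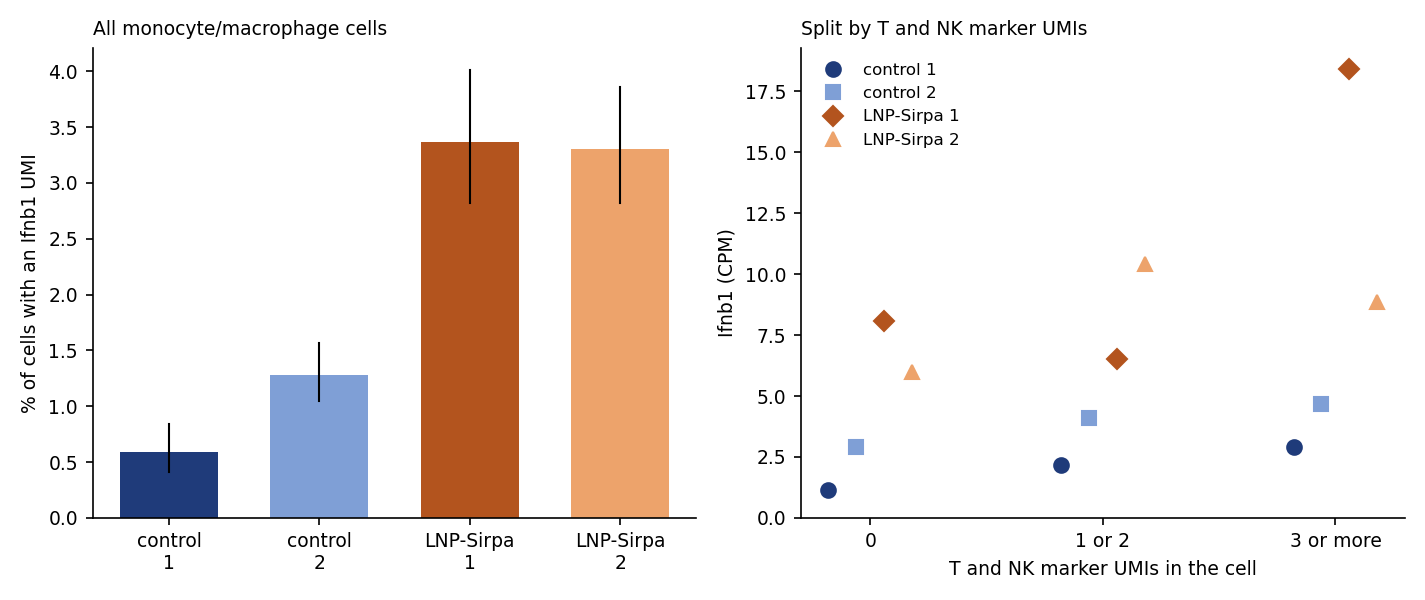
Ifnb1 in monocyte/macrophage-like cells. Left, the percent of cells with an Ifnb1 UMI in each library (bars) with 95% Wilson intervals (lines); right, Ifnb1 CPM in the same class split by the number of T and NK marker UMIs in the cell, 1 point per library. The bars of the controls reach 0.590% and 1.28% and those of the treated libraries 3.36% and 3.30%, and in each of the 3 splits both LNP-Sirpa points lie above both control points.

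Ifnb1 was also compared among monocyte/macrophage-like cells with different loads of lymphocyte transcripts. In cells with no T or NK marker UMI, Ifnb1 stood at 1.14, 2.90, 8.06 and 5.97 CPM. In cells with 3 or more it stood at 2.91, 4.65, 18.4 and 8.87 CPM. Both LNP-Sirpa libraries were above both controls at each load, and in cells without such a UMI the log2 difference was 1.91 ± 0.44 SE (edgeR adjusted p = 0.0840), a restriction chosen after seeing the data. Cells with a strong C1q signature, typical of tumour macrophages, gave 2.06 ± 0.38 SE (adjusted p = 0.0769). Monocyte-like cells with little C1q held 3, 0, 2 and 3 Ifnb1 UMIs, so no level can be read there.

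Cells outside the classes showed the same order of groups. Ungated cells held 17, 31, 137 and 150 Ifnb1 UMIs, at 1.13, 1.85, 4.74 and 8.06 CPM, and mixed droplets 12, 23, 63 and 49, at 1.94, 1.49, 3.16 and 6.08 CPM. In both sets the LNP-Sirpa values lay above the control values. The sets come from the same libraries as the class, and how many of all genes separate in this way was not counted. Over all kept cells Ifnb1 stood at 1.37, 2.58, 4.99 and 7.33 CPM. Of all Ifnb1 UMIs, the monocyte/macrophage-like class held 68.1%, 76.5%, 51.4% and 59.8%, so a smaller share of the ligand fell in that class in the LNP-Sirpa libraries, where it also held fewer of all kept cells. The class held 60.9%, 57.3%, 28.6% and 55.1% of the UMIs of all genes. Its Ifnb1 share was thus close to its share of all UMIs in control 1 and LNP-Sirpa 2.

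Among the tested classes Ifnb1 was counted 772 times in monocyte/macrophage-like cells and from 2 to 5 times in each of the other 5. It passed the filter on low counts through that class alone, so no test between classes is read from it. Of the other 5 members, all passed in the contrast of monocyte/macrophage-like cells with the mean of the other classes, in which 53.8% of 11275 genes passed. They did not share a direction. Ifng and Ifngr1 were lower in monocyte/macrophage-like cells, with log2 differences of -3.05 to -2.63 and -0.71 to -0.63 with a library left out. Ifngr2, Ifnar2 and Ifnar1 were higher. In pairs, however, Ifnar1 in these cells differed past the threshold from fibroblast-marker cells alone (2.19 ± 0.17 SE). Mature dendritic-like cells held 2 Ifnb1 UMIs, both in LNP-Sirpa 2. Plasmacytoid dendritic cells, known as strong producers of type I interferon, were nearly absent: the 10, 2, 7 and 4 cells with their markers held no Ifnb1 UMI, and 0 of 10 cells allows a share of cells with a UMI of up to 30%, which sets no limit on cells that express the gene. Neutrophil-like cells held 4 Ifnb1 UMIs, all in LNP-Sirpa 1, and B-like, type 1 dendritic-like and mast or basophil-like cells 0.

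Other interferon ligands were close to undetected. The most frequent was Ifna2 with 74 UMIs over all kept cells, followed by the lambda ligands Ifnl2 and Ifnl3 with 25 and 19. Of a list of such ligands 12 were in the files, and none of these passed the filter on low counts in any tested class. Of the 67 UMIs that 11 of them had in the classes, 50 were in monocyte/macrophage-like cells. Ifnlr1, the ligand-binding chain of the lambda receptor, had 36 UMIs in kept cells, while its partner Il10rb, which also serves the IL-10 receptor, had 18455. The antisense gene Ifngas1 near Ifng had 124.

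Ifng was the more abundant ligand by UMIs, with 24174 in 4859 cells. Among the classes its level was highest in CD8 T-like, CD4 T-like and NK-like cells. Mixed droplets and ungated cells, whose types are not assigned, held a large part of its UMIs, given below. In CD8 T-like cells it stood at 676, 777, 797 and 749 CPM, and 73.5%, 79.7%, 77.5% and 67.2% of the cells had an Ifng UMI. The groups overlapped, with means of 727 ± 71.5 CPM for control and 773 ± 34.4 CPM for LNP-Sirpa (SD, n = 2 each; log2 0.07 ± 0.22 SE, edgeR adjusted p = 0.983), and 0.592% of 9969 genes passed in this class. In NK-like cells Ifng stood at 243, 169, 211 and 162 CPM, again with overlapping groups (log2 -0.15 ± 0.21 SE, adjusted p = 0.901; 0.526% of 8176 genes passed). In regulatory T-like cells the levels were 34.8, 39.0, 31.5 and 10.2 CPM, from 8, 11, 33 and 5 UMIs. The LNP-Sirpa libraries were lower there, but the test did not pass (-0.71 ± 0.54 SE, adjusted p = 0.880; 0.666% of 5553 genes passed).

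Within a class Ifng was concentrated in few cells. The 10% of CD8 T-like cells with the most Ifng UMIs held 43.1%, 40.3%, 56.1% and 60.1% of the Ifng UMIs of that class. The highest single cells held 55, 49, 219 and 241, and cells with 50 or more numbered 1, 0, 8 and 3. Both LNP-Sirpa libraries were above both controls in the share of these top cells and in the highest cell, at unequal numbers of cells, and neither was tested. The top 10% of NK-like cells held from 52.9% to 67.6%. CD4 T-like cells without the regulatory marker Foxp3 numbered 9, 29, 87 and 86, too few in control 1 for a test, and stood at 1852, 1689, 336 and 796 CPM. The control values there rest on 80 and 278 UMIs, of which the single highest cells held 76 and 96.

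Among the tested classes, Ifng was highest in CD8 T-like cells, followed by NK-like cells. The CD4 T-like class, too small for a test, stood above CD8 T-like cells in every library but LNP-Sirpa 1. Ifng was higher in CD8 T-like than in NK-like cells by 1.81 ± 0.29 SE (adjusted p = 2.48e-04). The log2 difference of regulatory T-like from NK-like cells was -3.37 ± 0.42 (adjusted p = 5.16e-06), and that of monocyte/macrophage-like from regulatory T-like cells -2.12 ± 0.49 (adjusted p = 0.0014). Regulatory T-like and mature dendritic-like cells did not differ past the threshold (2.07 ± 0.83, adjusted p = 0.0595). Nor did monocyte/macrophage-like, mature dendritic-like and fibroblast-marker cells from each other. Mature dendritic-like and fibroblast-marker cells held only 9 and 18 Ifng UMIs over the 4 libraries. Neither a difference nor a likeness is therefore read from pairs with these classes, which the count that follows includes. In all, 11 of the 15 pairs of classes differed for Ifng, where the share of all genes that passed was 54.9%, 45.6%, 51.2%, 42.9% and 61.5% for monocyte/macrophage-like cells against, in turn, CD8 T-like, regulatory T-like, NK-like, mature dendritic-like and fibroblast-marker cells. It was 14.6%, 12.3%, 40.6% and 59.9% for CD8 T-like cells against the last 4 of these, 25.9%, 35.7% and 56% for regulatory T-like cells against the last 3, 43.1% and 54.2% for NK-like cells against the last 2, and 55.8% for mature dendritic-like against fibroblast-marker cells. Against the mean of the other classes 5 members passed in CD8 T-like cells (34.6% of all genes passed), 3 in NK-like cells (37.3%) and 2 in regulatory T-like cells (31.9%).

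**Figure D2:**
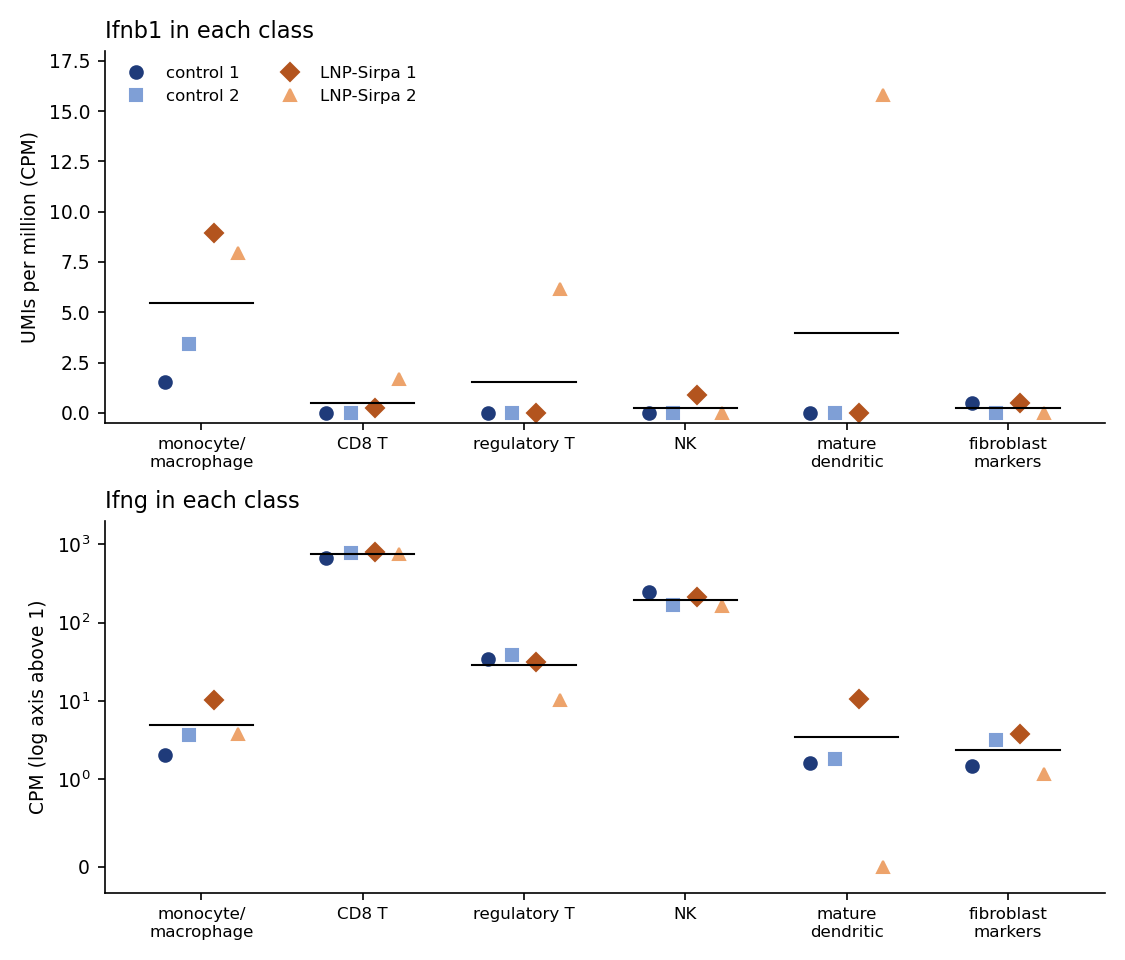
Level of Ifnb1 (top, CPM on a linear axis) and Ifng (bottom, CPM on an axis that is logarithmic above 1 and linear below) in the 6 tested classes. Each point is 1 library and each line the mean of 4. Ifnb1 is highest in monocyte/macrophage-like cells, apart from the LNP-Sirpa 2 point of mature dendritic-like cells, which rests on 2 UMIs; Ifng is highest in CD8 T-like cells, from 676 to 797 CPM, followed by NK-like cells.

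Much of the Ifng of these tumours lay outside the clean classes. Mixed droplets held 31.2%, 48.9%, 41.5% and 29.4% of all Ifng UMIs, CD8 T-like cells 11.6%, 23.4%, 26.7% and 37.2%, ungated cells 29.1%, 17.1%, 23.6% and 22.0%, and NK-like cells 19.2%, 2.38%, 4.15% and 1.35%. NK-like cells thus gave a visible part of Ifng in control 1 alone. Over all kept cells Ifng stood at 29.1, 65.8, 133 and 68.0 CPM. The libraries have the same order by this level and by their number of CD8 T-like cells. Control 2 and LNP-Sirpa 2 had close levels, however, with 266 and 390 such cells. The level within CD8 T-like cells overlapped between groups. Whether the number of these cells plays a part in the Ifng level of a library was not tested.

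Monocyte/macrophage-like cells had low Ifng counts of 85, 191, 251 and 148 UMIs, at 2.03, 3.67, 10.2 and 3.81 CPM. LNP-Sirpa 1 stood apart, and LNP-Sirpa 2 was next to control 2. The log2 difference of 1.37 ± 0.47 SE did not pass (edgeR adjusted p = 0.210), passed with DESeq2 (adjusted p = 0.0453), and ran from 8.08e-06 to 0.868 in adjusted p over all alternatives. Of these cells 1.57%, 2.54%, 5.20% and 2.80% had an Ifng UMI, with 1.06, 1.05, 1.36 and 1.16 UMIs per positive cell against 6.44 to 7.43 in CD8 T-like cells. T cell markers in the same class summed to 17.5, 32.7, 63.5 and 34.9 CPM, highest in LNP-Sirpa 1 as well. In cells with no T or NK marker UMI the Ifng levels were 1.94, 3.53, 8.06 and 2.70 CPM, and there the groups overlapped.

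The treatment difference in Ifng was larger in monocyte/macrophage-like than in CD8 T-like cells by 1.19 ± 0.31 SE on the log2 scale (edgeR interaction test, adjusted p = 0.0415; 2.31% of 14387 genes passed). This was the 1 member of 6 that passed in that test. It did not pass without control 1 (0.91, adjusted p = 0.940), without control 2 (1.55, adjusted p = 0.888) or without LNP-Sirpa 1 (0.52, adjusted p = 0.968), and passed at 1.77 without LNP-Sirpa 2. Between NK-like and CD8 T-like cells the difference in Ifng was -0.21 ± 0.22 (adjusted p = 0.983), 0 of 5 members tested passed, and 0.279% of 10019 genes passed.

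The receptor chains were present in every tested class, with class patterns that differed between chains. Ifnar1, the type I chain that binds the kinase TYK2, stood at 84.3, 94.0, 90.5 and 73.2 CPM in monocyte/macrophage-like cells and at 108, 94.5, 97.6 and 86.8 CPM in CD8 T-like cells. Its level in fibroblast-marker cells was 23.1, 21.6, 13.1 and 23.4 CPM, below every other tested class. Their difference from the mean of the other classes was -2.13 ± 0.16 SE (adjusted p = 1.21e-14; 65.5% of all genes passed in this contrast). Among the 5 leukocyte classes no pair passed for Ifnar1, with differences of at most 0.33 ± 0.18 in size and adjusted p from 0.211 to 0.973.

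Ifnar2, the other type I chain, had its highest tested level in monocyte/macrophage-like cells at 141, 184, 218 and 163 CPM. These cells stood 1.38 ± 0.10 SE above the mean of the other classes (adjusted p = 3.24e-15) and differed from each of the other 5 in pairs. No other pair of classes passed for Ifnar2, but with plain library sizes regulatory T-like cells also differed from the other 4 classes (adjusted p from 0.00142 to 0.0148), so that 9 of 15 pairs passed. CD8 T-like cells were at 46.6, 54.5, 95.2 and 69.2 CPM. Small classes, given as values with no test, reached further: neutrophil-like cells held 103, 630, 256 and 252 CPM from 4, 17, 127 and 67 UMIs, and plasmacytoid dendritic-like cells 445 to 1184 CPM from 45 UMIs in all.

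Ifngr1, the ligand-binding gamma chain, was highest in regulatory T-like cells at 370, 557, 461 and 443 CPM. CD8 T-like cells followed at 309, 250, 268 and 273 CPM and NK-like cells at 237, 273, 245 and 282 CPM. Monocyte/macrophage-like cells were at 105, 120, 84.3 and 79.0 CPM and mature dendritic-like cells at 53.4, 52.7, 48.2 and 55.2 CPM. CD8 T-like cells differed from regulatory T-like cells by -0.49 ± 0.15 SE (adjusted p = 0.0216), and regulatory T-like cells exceeded NK-like cells by 0.48 ± 0.15 (adjusted p = 0.0181). CD8 T-like and NK-like cells did not differ past the threshold (-0.01 ± 0.15, adjusted p = 0.977), nor did mature dendritic-like and fibroblast-marker cells (0.02 ± 0.20, adjusted p = 0.955). The other 13 of 15 pairs passed, among them monocyte/macrophage-like against CD8 T-like cells at -1.42 ± 0.15 (adjusted p = 1.44e-10).

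Ifngr2, the signal-completing gamma chain, had another order. It stood at 56.8, 56.0, 80.6 and 42.7 CPM in monocyte/macrophage-like cells and at 29.2, 56.3, 42.1 and 103 CPM in mature dendritic-like cells, the last from 13 UMIs. In CD8 T-like cells it stood at 5.83, 5.00, 12.03 and 6.29 CPM and in NK-like cells at 3.80, 5.93, 7.14 and 7.48 CPM. Monocyte/macrophage-like cells exceeded CD8 T-like cells by 3.05 ± 0.23 SE and NK-like cells by 3.40 ± 0.27 (adjusted p = 7.10e-14 and 3.25e-13), and did not differ past the threshold from mature dendritic-like cells (0.20 ± 0.23, adjusted p = 0.516). No difference among the T-like and NK-like classes passed, with 72, 26 and 30 Ifngr2 UMIs in all. Across the 24 sums of 6 classes in 4 libraries Pearson's r of log2 CPM between Ifngr1 and Ifngr2 was -0.64, given as a description of sums that share libraries. In mature dendritic-like cells 4 members passed against the mean of the other classes (40.2% of all genes passed), with Ifngr2 at 2.09 ± 0.24 and Ifngr1 at -1.57 ± 0.17.

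**Figure D3:**
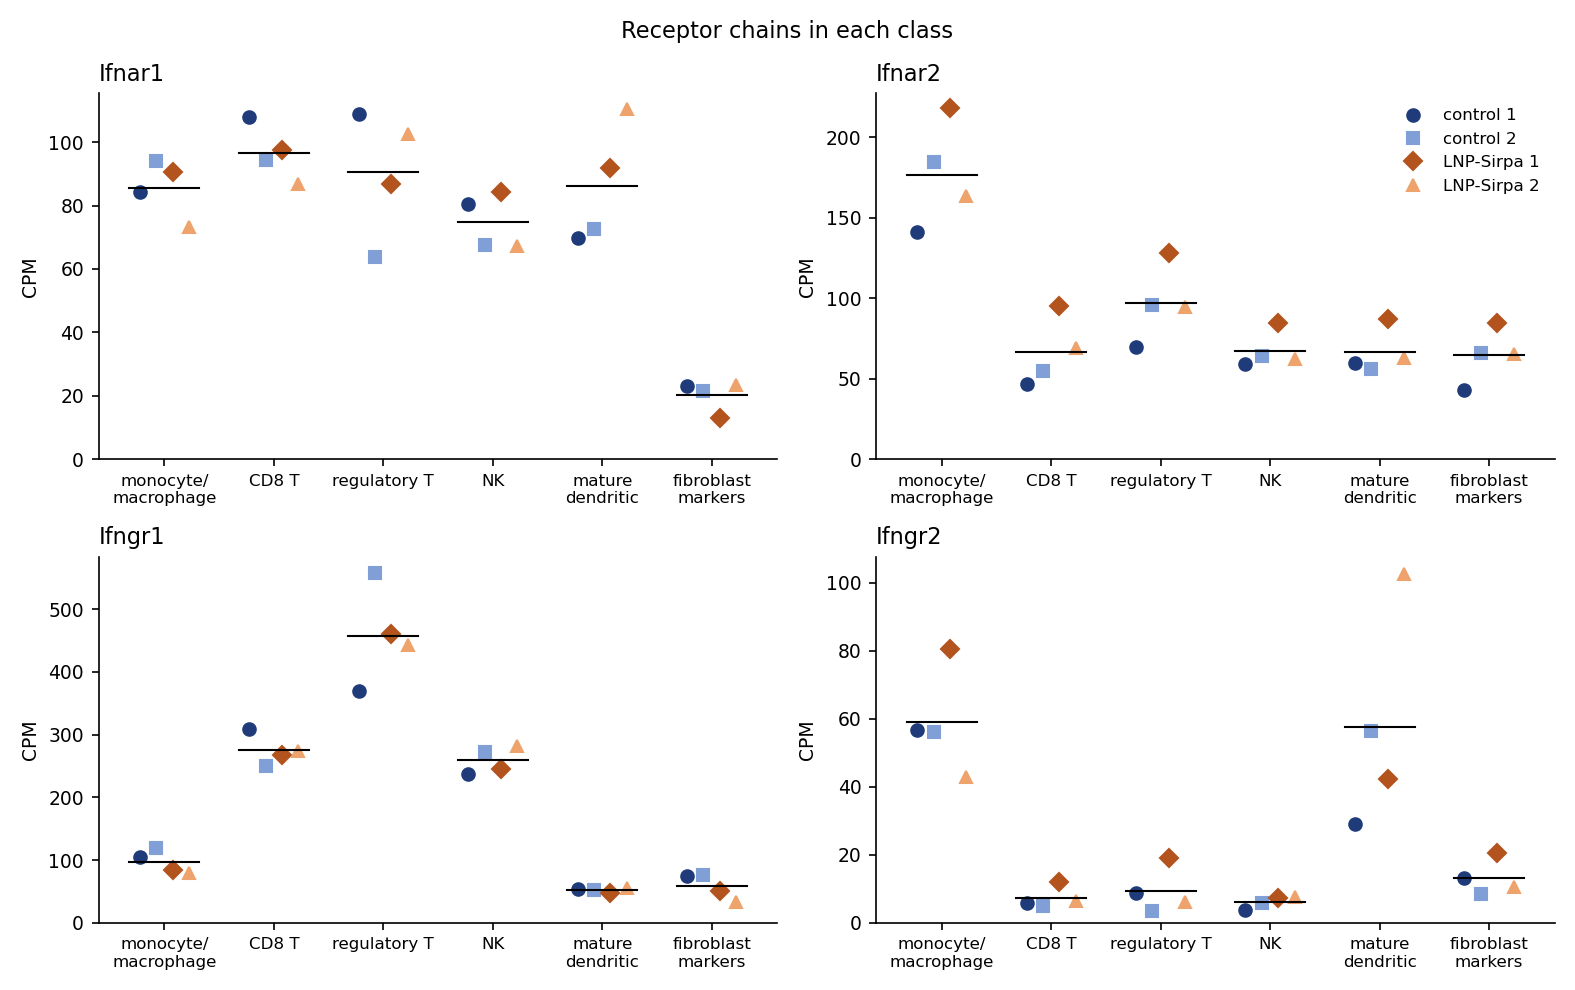
Level of Ifnar1, Ifnar2, Ifngr1 and Ifngr2 (CPM, linear axes from 0) in the 6 tested classes. Each point is 1 library and each line the mean of 4. Ifnar1 is low in fibroblast-marker cells at 13.1 to 23.4 CPM, Ifnar2 is highest in monocyte/macrophage-like cells, Ifngr1 is highest in regulatory T-like cells at 370 to 557 CPM, and Ifngr2 is highest in monocyte/macrophage-like and mature dendritic-like cells.

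UMIs of both chains of a receptor were seldom caught in 1 cell. After thinning to 2000 UMIs, 4.74%, 6.03%, 6.31% and 4.07% of monocyte/macrophage-like cells had a UMI of both Ifnar1 and Ifnar2, and 2.30%, 2.17%, 2.07% and 1.30% of both Ifngr1 and Ifngr2. In CD8 T-like cells the shares were 4.17%, 3.82%, 3.51% and 1.11% for the type I chains and 2.08%, 0.382%, 0.975% and 0.556% for the gamma chains. At this depth the absence of a UMI does not show the absence of a chain.

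No receptor chain changed past the threshold with treatment in any tested class. Of 27 tests of members within classes 0 passed in edgeR, 4 had an unadjusted p below 0.05 (Ifnb1 and Ifng in monocyte/macrophage-like cells, Ifnar2 in CD8 T-like cells and Ifngr1 in fibroblast-marker cells), and 2 passed in DESeq2, both ligands in monocyte/macrophage-like cells. Ifnar2 in CD8 T-like cells was higher in LNP-Sirpa 1 and 2 than in both controls by 0.64 ± 0.26 SE (adjusted p = 0.460). Ifngr1 in fibroblast-marker cells, at 73.8, 75.4, 50.1 and 32.7 CPM, was lower in both LNP-Sirpa libraries (-0.72 ± 0.25 SE, adjusted p = 0.214; 2.17% of 10150 genes passed). Ifngr1 in monocyte/macrophage-like cells was also lower in both, at 112 ± 10.7 against 81.6 ± 3.74 CPM (SD, n = 2 each; -0.31 ± 0.17 SE, adjusted p = 0.411). Ifnar1 in that class differed by 0.02 ± 0.16 SE and Ifngr2 by 0.25 ± 0.24 SE, and both overlapped between groups. In mature dendritic-like cells, where 1.82% of 5546 genes passed, the 4 receptor chains differed by -0.28 to 0.27 with adjusted p from 0.734 to 0.837.

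Cells caught with an Ifng transcript were compared with the other cells of their class, within each library. In CD8 T-like cells 36, 212, 410 and 262 cells had an Ifng UMI and 13, 54, 119 and 128 had none, and 50 of 7723 genes (0.647%) differed, 31 higher and 19 lower in the positive cells. Ccl3, a chemokine of activated T cells, was higher by 1.32 ± 0.13 SE (adjusted p = 7.09e-08), at 806 ± 137 against 308 ± 163 CPM (SD, n = 4 libraries). The chemokine Ccl4 (0.53 ± 0.08), the granzyme gene Gzmd (1.07 ± 0.20), perforin Prf1 (0.61 ± 0.14) and Rgs16, a regulator of G protein signalling (0.93 ± 0.14), were also higher, each in 4 of 4 libraries. So were Ube2c and Birc5, genes of cell division (1.10 ± 0.23 and 0.90 ± 0.21), and Il1r2, Nrgn, Klrh1, H2bc4 and Dgkh completed the 10 largest rises, at 0.74 to 0.88. Tcf7, a factor of memory and progenitor T cells, was lower (-1.40 ± 0.36), as were Anxa1 (-1.02 ± 0.22), the gut-homing integrin gene Itgb7 (-0.90 ± 0.20), Znrf3 (-0.86 ± 0.20), Slco3a1 (-0.85 ± 0.21) and Gramd3 (-0.70 ± 0.13). Of 25 tested genes of a list of T and NK effector genes, 3 rose with Ifng (Ccl3, Ccl4 and Prf1), 1 fell (Tcf7) and the rest did not pass, with a median of 0.14 against 0.01 over all genes. None of the 4 receptor chains passed, and their adjusted p ran from 0.713 to 0.962.

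Depth moved with this split. Positive CD8 T-like cells had median depths of 6199, 6594, 6537 and 6044 UMIs against 4653, 4695, 5088 and 3744 in negative ones. With cells thinned to 2000 UMIs 19 genes passed, 8 of them among the 50. Ccl3, Ccl4, Prf1 and Rgs16 passed there too, at 1.25, 0.83, 0.49 and 0.76, as did Dgkh at 0.84, whereas Gzmd was at -0.43 and Ube2c and Birc5 at 0.12 and 0.11. None of the 6 genes named as lower passed after thinning (adjusted p from 0.224 to 1.00). Leaving out a library left from 10 to 29 genes, fewest without LNP-Sirpa 1. Of the genes named, Ccl3, Ccl4 and Rgs16 passed with each library left out. The others lost their call without at least 1, with adjusted p of up to 0.523 for Prf1 and 0.699 for Tcf7. With doubled marker minimums Ccl3 and Rgs16 passed and Ccl4 did not (edgeR adjusted p = 0.0773).

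In NK-like cells 65, 30, 139 and 23 cells had an Ifng UMI, and 16 of 6782 genes (0.236%) differed, 8 in each direction. Ccl4 was higher by 1.12 ± 0.12 SE (adjusted p = 2.51e-05), at 1036 ± 410 against 461 ± 206 CPM (SD, n = 4 libraries). The genes Nfkbia and Nfkbiz, regulators of NF-kappaB (0.57 ± 0.10 and 0.63 ± 0.15), the kinase Pim1 (0.62 ± 0.13), the activation marker Cd69 (0.54 ± 0.13) and the interferon-induced Oasl1 (0.94 ± 0.21) were higher in 4 of 4 libraries. Tmsb15a (-2.49 ± 0.33), Eif4ebp1, a repressor of translation (-1.07 ± 0.22), and the protease inhibitor Serpinb6a (-0.82 ± 0.18) were lower. Of the effector list 2 of 21 tested genes rose, Ccl4 and Cd69, with a median of 0.23 against -0.01 over all genes. The calls depended on the cells used: 1 of the 16 genes, Nfkbia, was also among the 14 that passed after thinning, 4 genes passed without control 1 and 37 without LNP-Sirpa 2. Of the genes named, Ccl4 alone passed with each library left out. It did not pass with doubled marker minimums (edgeR adjusted p = 0.359) or after thinning (edgeR adjusted p = 0.740).

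Monocyte/macrophage-like cells with an Ifnb1 UMI were compared in the same way, a comparison added after seeing the data. These were 30, 92, 119 and 151 cells, and 308 of 13896 genes (2.22%) differed, 189 higher and 119 lower. Tnf, the gene of tumour necrosis factor, was higher by 1.67 ± 0.09 SE (adjusted p = 2.41e-69), at 337 ± 53.6 against 106 ± 15.5 CPM (SD, n = 4 libraries). The chemokine genes Ccl4 and Ccl5 were higher by 1.50 ± 0.06 and 1.35 ± 0.09, Ppp1r15a, which lifts the stress block on translation, by 1.55 ± 0.09, and Acod1, the itaconate-producing enzyme, by 1.04 ± 0.09. Peli1, a ubiquitin ligase of Toll-like receptor signalling (1.06 ± 0.11), the interferon-induced Gbp5 (1.19 ± 0.13), Tagap (1.23 ± 0.13), Rnd3 (1.12 ± 0.12) and the ascorbate transporter Slc23a2 (1.03 ± 0.11) made up the 10 largest rises, each in 4 of 4 libraries. Nt5e, which encodes the adenosine-producing CD73, was lower (-1.32 ± 0.15), as were Mmp12, the macrophage elastase (-0.81 ± 0.16), the cytokine gene Osm (-0.76 ± 0.11), Thbs1 (-0.76 ± 0.11) and the elongation factor Ell2 (-0.70 ± 0.11). The other 5 members did not pass, with adjusted p from 0.872 to 0.998.

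Here too depth moved with the split, at medians of 10025, 8595, 9282 and 10152 UMIs in positive cells against 6778, 6076, 5745 and 7513 in negative ones. With cells thinned to 2000 UMIs 29 genes passed, 18 of them among the 308. Tnf, Ppp1r15a, Ccl4, Ccl5, Acod1, Thbs1 and Ell2 passed there, and Tagap, Gbp5, Rnd3, Peli1, Slc23a2, Nt5e, Mmp12 and Osm did not. Without LNP-Sirpa 2 the count was 162, and Mmp12 alone of the genes named lost its call with a library left out (adjusted p of up to 0.752).

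**Figure D4:**
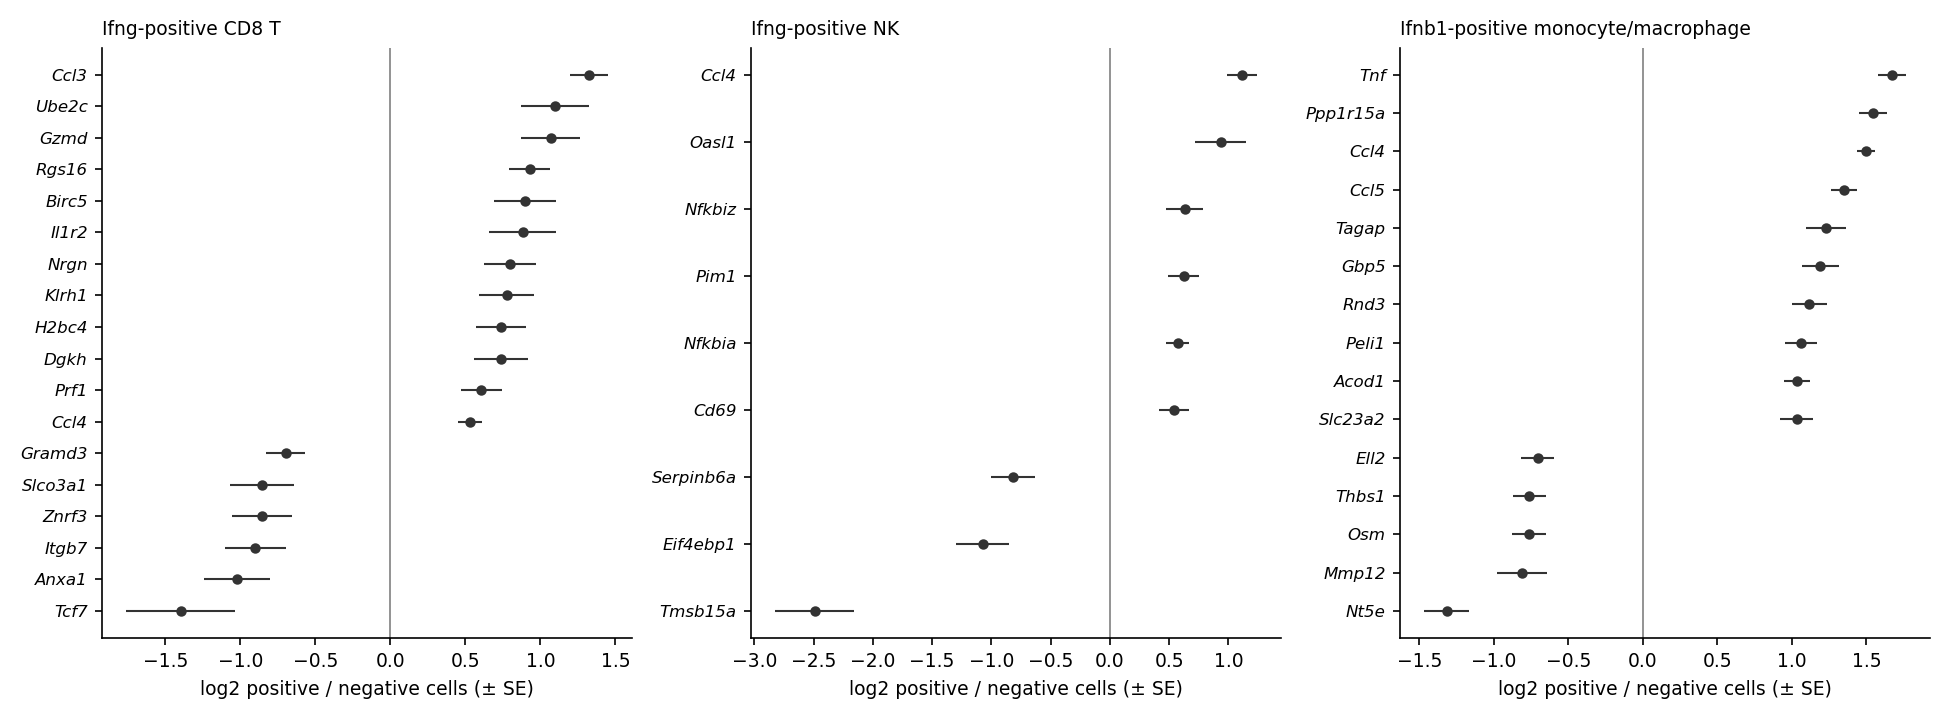
Genes named in cells with a ligand UMI against cells of the same class and library without it: Ifng in CD8 T-like cells (left), Ifng in NK-like cells (middle) and Ifnb1 in monocyte/macrophage-like cells (right). The horizontal axis is the log2 difference of positive over negative cells, points are edgeR estimates over 4 libraries and lines are ± 1 SE. Ccl4 is to the right of 0 in all 3 panels, at 0.53, 1.12 and 1.50.

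Genes that carry the interferon signal were examined in the same classes, from lists chosen with earlier results of these data known. Among the signal transducers, Stat2 rose in mature dendritic-like cells by 1.64 ± 0.34 SE and in fibroblast-marker cells by 2.41 ± 0.35 (adjusted p = 0.0196 and 0.00692). Irf9, a DNA-binding part of the type I signalling complex, rose in fibroblast-marker cells (1.27 ± 0.28). Of 7 negative regulators, Usp18, which blocks signalling at IFNAR2, and Socs1, an inhibitor of JAK kinases, rose in fibroblast-marker cells by 3.95 ± 0.41 and 2.12 ± 0.46, and 0 passed in the other classes.

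Among the sensors and factors that can induce Ifnb1, Zbp1, a nucleic acid sensor that is itself interferon-induced, rose in 4 of 6 classes. Its levels in the monocyte/macrophage-like class were 49.8, 55.3, 333 and 159 CPM, both LNP-Sirpa libraries above both controls (2.34 ± 0.30 SE, adjusted p = 0.0492). It was the 1 gene of all lists that passed in that class. The sensor gene Ifih1 rose in CD8 T-like cells (1.81 ± 0.33) and mature dendritic-like cells (2.19 ± 0.44), and the factor Irf7 in fibroblast-marker cells (1.92 ± 0.26). In mature dendritic-like cells Irf7 stood at 25.9, 21.8, 161 and 23.7 CPM, so that its call (2.10 ± 0.50, adjusted p = 0.0499) rests on LNP-Sirpa 1, with LNP-Sirpa 2 between the controls. Fibroblast-marker cells also had higher Ddx58 (1.91 ± 0.36) and Tlr3 (1.98 ± 0.46), both sensors of RNA. Of the genes that favour Ifng, Il18r1, a chain of the interleukin-18 receptor, fell in CD8 T-like cells from 131 and 141 to 68.5 and 53.3 CPM (-1.19 ± 0.24, adjusted p = 0.0206), and Il12rb1 rose in fibroblast-marker cells from 1.48 and 3.16 to 15.5 and 7.01 CPM.

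Interferon targets differed in how many passed from class to class. Of the type I targets Ifit1, Ifit3, Isg15, Rsad2, Oas1a and Ifi44, 6 of 6 rose in fibroblast-marker cells with a median of 3.64, among them Rsad2 by 3.91 ± 0.33 SE (adjusted p = 5.34e-05) and Isg15 by 3.63 ± 0.44. In monocyte/macrophage-like cells 0 of 6 passed at a median of 2.94, with Isg15 at 109, 138, 1610 and 466 CPM (3.16 ± 0.53, adjusted p = 0.0638). In NK-like cells 0 of 5 passed at a median of 0.30, with Isg15 at 194, 234, 385 and 115 CPM. Of the gamma targets, Gbp2 rose in CD8 T-like (1.74 ± 0.30), mature dendritic-like (1.79 ± 0.33) and fibroblast-marker cells (2.10 ± 0.28). The chemokine Cxcl9 rose in CD8 T-like (2.04 ± 0.37) and regulatory T-like cells (3.13 ± 0.49). Its level was 20.4, 72.3, 255 and 207 CPM in CD8 T-like and 218, 926, 2773 and 1982 CPM in monocyte/macrophage-like cells, and the part of macrophage RNA in the T cell values was not tested. Cd274, the gene of PD-L1, rose in mature dendritic-like cells (1.17 ± 0.25) and in fibroblast-marker cells, the latter from 8.86 and 13.2 to 42.6 and 80.6 CPM.

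In all, 1 of 56 tested genes of these lists passed in monocyte/macrophage-like cells (0.504% of all genes passed), 4 of 49 in CD8 T-like (0.592%), 2 of 39 in regulatory T-like cells (0.666%), 0 of 47 among NK-like cells (0.526%), 8 of 36 in mature dendritic-like (1.82%) and 19 of 45 in fibroblast-marker cells (2.17%). Among NK-like cells DESeq2 gave 0 as well, while 2 transducers, 2 negative regulators, 4 inducers of Ifnb1, 2 of Ifng, 1 type I target and 2 gamma targets had an unadjusted p below 0.05. The monocyte/macrophage-like count was 21 with DESeq2, 0 without control 1, 15 without LNP-Sirpa 1 and 21 without LNP-Sirpa 2, and the mature dendritic-like count 2 with DESeq2 and from 0 to 20 over the libraries left out. The difference between classes in these counts was not tested.

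**Figure D5:**
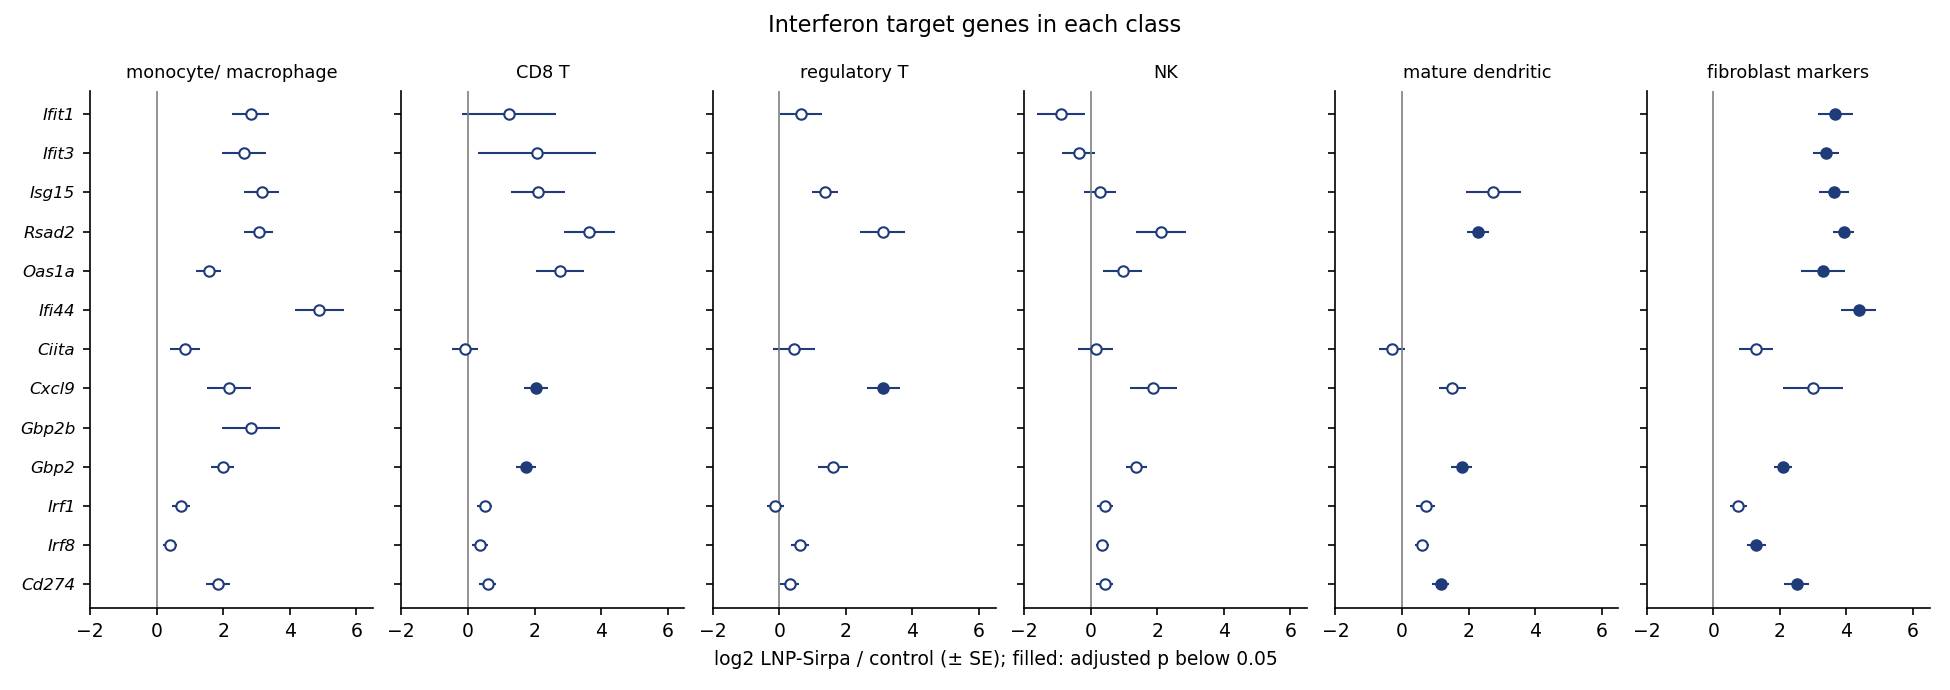
Log2 difference of LNP-Sirpa over control (horizontal axes, ± 1 SE) for type I and gamma interferon targets in the 6 tested classes, from edgeR on sums of 2 libraries per group. Filled points have an adjusted p below 0.05 and open points do not; a gene without a point did not pass the filter on low counts. In fibroblast-marker cells 6 type I targets are filled, in monocyte/macrophage-like and NK-like cells none.

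The genes most like each member across the 24 sums were found by Pearson's r of log2(CPM + 10) over 8216 genes or, for Ifnb1, 8217, as a description of sums that share libraries and depth. For Ifnb1 these were Cpeb2 (0.84), Rnase6 (0.82), Il1a (0.78), Rnf149 and Rap1gap2 (both 0.77). For Ifng they were Cd96, Klrc1, Wdr95, Cd226 and Ms4a4b, from 0.95 to 0.97. Ifnar1 was most like Coro1a (0.94), Lcp1, Prex1, Acsl4 and Arhgap30, each low in fibroblast-marker cells, and Rrbp1 (0.92), Pde7b, Ccl8 and G530011O06Rik were among the genes most like Ifnar2. Ifngr1 was most like Arhgef1 (0.96), Tex2, Nlrc3, Rnf125 and Spn, and Ifngr2 most like Dnajb14 (0.93), Cnpy3, Ifi30, Tmem106a and Plekho1.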

How the data were processed

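UMI counts per gene and cell were deposited as whole numbers by the authors, written by PISA 1.0 per the file headers, from reads aligned with STAR 2.5.1b to GRCm39 per the submitters' processing notes. Which annotation was used, and how cells were called, is not given in the sources used here. The oligo libraries were not analysed here. No value was normalized before deposit. Some results are not reported here.

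Cells needed 500 UMIs, 300 genes and at most 15% mitochondrial UMIs. Of the cell names, 830 to 1242 are shared by a pair of libraries, but they are counters and not barcode sequences. Scrublet (scanpy 1.11.5) called 0, 0, 1 and 0 doublets, under 0.5%, and so had not worked; leaving out the 5% of cells with the highest scores was an alternative. Classes were gated on summed marker UMIs. CD8 T-like, regulatory T-like and CD4 T-like cells needed 5 general T cell marker UMIs. To these came 2 UMIs of CD8 markers, 2 of Foxp3 or a Cd4 UMI. The other classes needed 5 or 10 marker UMIs, of at least 3 different markers. Monocyte/macrophage-like cells needed 80 phagocyte marker UMIs per 10000 UMIs of the cell. Neutrophil-like cells had to be below 80, plasmacytoid dendritic-like cells below 60 and the other classes below 40. Members and lists were chosen with earlier results of these data known, and gate thresholds and the rule of 3 different markers were set after seeing values, the latter after the first Ifng test in NK-like cells.

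Counts were summed per library and class. Classes with 20 cells in every library were tested by the robust quasi-likelihood test of edgeR 4.0.16 (R 4.3.3) after TMM scaling and filterByExpr, with Benjamini-Hochberg adjustment over all genes and a threshold of 0.05, with the library as a block for contrasts within libraries (each class against the mean of the others, the 15 pairs of classes, and ligand-positive against negative cells). Each comparison of 2 against 2 libraries has too few samples for a permutation test, whose smallest exact two-sided p is 0.3333. Scripts were tested on simulated data. Named genes were the members, up to 4 per list and class with the smallest p past the threshold (type I targets also Ifit1 and Oas1a, by count), for ligand-positive cells, among genes past the threshold with 50 CPM or more, the 10 that rose and 5 that fell most, and effector genes past it, and 5 genes by correlation; genes named without passing were chosen after their values were seen. Alternatives were DESeq2 1.42.0, its size factors, plain library size, no filter, each library left out, the replicate number as a block, other gates, doublet and cell filters, and other thinning. Python 3.11.15 was used with numpy 2.4.6, pandas 2.3.3, scipy 1.17.1 and matplotlib 3.10.9.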

Additional observations from a re-analysis of the deposited data

Results flagged for a closer look

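The difference between LNP-Sirpa and control libraries in Ifng was larger in monocyte/macrophage-like than in CD8 T-like cells by 1.19 on the log2 scale (edgeR interaction test, adjusted p = 0.0415), a difference between classes under the same contrast. Over the alternatives with every library kept the value was 1.08 with plain library sizes (adjusted p = 0.178), 1.15 with doubled marker minimums (adjusted p = 3.25e-04) and 1.19 with any number of different markers (adjusted p = 0.0407). Summed T cell markers in the monocyte/macrophage-like cells moved with it, at 17.5, 32.7, 63.5 and 34.9 CPM, and their part in it was not tested.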

How the results depend on the processing

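With one choice changed at a time, 320 of 351 treatment values of members kept their direction and side of the threshold, 5 newly passed and 26 changed sign; the latter were at most 0.37 in size with adjusted p of at least 0.678. Of 296 class contrasts 271 stayed, 5 no longer passed, 8 newly passed and 12 changed sign, and of 76 interaction values 64, 4, 0 and 8. The cause of no change was tested.

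The log2 difference of Ifnb1 in monocyte/macrophage-like cells was 1.91 with DESeq2, 1.87 without a filter and 2.00 with the replicate number as a block (adjusted p = 0.0497); members past the threshold there were 2, 2 and 1 under these settings. The difference of replicate 1 from replicate 2 within control and that within LNP-Sirpa correlated between -0.0482 and 0.0341 over the classes. These correlations cannot show whether same-numbered libraries share an origin. In the monocyte/macrophage-like class, list genes that passed numbered 21 with DESeq2, 0 with its size factors, 31 without a filter, 7 with the replicate block, 8 in cells without a T or NK marker UMI, 0 in C1q-high and 7 in C1q-low cells, and 0 to 21 with a library left out. For CD8 T-like cells they were 2 with DESeq2, 13 without a filter, 12 with the replicate block and 5 to 15 with a library left out; for regulatory T-like cells 1, 10, 0 without the highest doublet scores and 1 to 9; for NK-like cells 2 with DESeq2 size factors, 8 without a filter, 4 with the block, 2 with doubled marker minimums, 3 with a phagocyte ceiling of 60 and 1 to 10; for mature dendritic-like cells 2 with DESeq2, 14 without a filter and 0 to 20.

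Sign changes of treatment values were as follows. Without a filter, Ifnar1 in monocyte/macrophage-like cells was -0.00015, Ifngr1 in CD8 T-like cells 0.018 and in regulatory T-like cells 0.0017. Ifnar1 in C1q-high cells was -0.017. In NK-like cells Ifnar1 was -0.12 with doubled minimums and -0.20 with any number of different markers, and Ifngr1 -0.041 with the ceiling of 60 and -0.37 with any markers. With a library left out, monocyte/macrophage-like Ifnar1 ran from -0.092 to 0.14 and Ifngr2 from -0.13 to 0.54, CD8 T-like Ifng from -0.021 to 0.21 and Ifngr1 from -0.17 to 0.11, regulatory T-like Ifnar1 from -0.29 to 0.58 and Ifngr1 from -0.27 to 0.22, NK-like Ifng from -0.37 to 0.14, Ifnar1 from -0.10 to 0.16 and Ifngr1 from -0.14 to 0.20, mature dendritic-like Ifnar2 from -0.044 to 0.38 and Ifngr2 from -0.21 to 1.11, and fibroblast-marker Ifnar1 from -0.72 to 0.16.

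Among class contrasts, Ifnb1, from which no test is read, became 0.28 in CD8 T-like, -5.83 in regulatory T-like and 0.18 in NK-like cells without the highest doublet scores, -0.12 and -0.20 in regulatory T-like cells with the ceiling of 60 and with any markers, and 0.71 in NK-like cells with any markers. Regulatory T-like Ifng and Ifnar2 became 0.089 and 0.26 with plain library sizes, and Ifng ran from -0.43 to 0.22 with a library left out; members past the threshold were then 1 to 2. NK-like Ifnar1 was -0.14 with any markers, mature dendritic-like Ifnar2 0.013 with the ceiling of 60 and fibroblast-marker Ifngr2 0.0090 with doubled minimums. Interactions of NK-like with CD8 T-like cells became -0.073 for Ifnar1 and -0.39 for Ifngr1 with any markers, and ran from -0.59 to 0.17 for Ifng, -0.19 to 0.29 for Ifngr1 and -0.79 to 0.030 for Ifngr2 with a library left out. That of monocyte/macrophage-like with CD8 T-like cells was -0.040 for Ifnar1 with plain library sizes and -0.053 to 0.28 with a library left out, and members past the threshold were 0 and 0 to 1.

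Genes that differed in Ifng-positive CD8 T-like cells were 19 after thinning, 24 with doubled minimums and 10 to 29 with a library left out; in Ifng-positive NK-like cells 2 with doubled minimums, 646 with any markers and 4 to 37; in Ifnb1-positive monocyte/macrophage-like cells 29 after thinning and 162 to 273. Shares with a UMI depend on depth. The setting of 2 or more UMIs is counted after thinning to 2000. For Ifnb1 in monocyte/macrophage-like cells they were, unthinned and with 2 or more UMIs after thinning, 0.936% and 0.0861% in control libraries, and 3.33%, 0.773% (1000 UMIs), 1.88% (3000 UMIs) and 0.268% (2 or more) in LNP-Sirpa libraries. For Ifng in CD8 T-like cells the 4 settings gave 76.6%, 40.4%, 65.5% and 38.7% in control, and 72.3%, 36.1%, 60.7% and 28.0% in LNP-Sirpa libraries. For Ifng in NK-like cells they gave 47.5% unthinned and 11.3% with 2 or more in control, and 52.7%, 32.4% (3000 UMIs) and 9.66% in LNP-Sirpa libraries. The 2 libraries per group and the smallest classes, 22 to 49 cells in a library, limit every test.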
